A study of Homo sapiens with 16 samples.

Results

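Interferon-stimulated genes are the genes that cells switch on when interferon reaches them. A list of 42 such genes was followed in 4 human leukaemia lines exposed to PD-0332991 or to its solvent. Of the 42, 41 had a probe set (a group of short DNA probes read together) that the platform annotation assigns to exactly 1 gene symbol, and where a gene had several, the brightest on average over the 16 arrays stood for it. STAT2 had no such probe set and is not analysed here. Genes dim in every line were set aside before testing: at least 1 line had to average, over its 4 arrays, no less than the overall median intensity of 29.5 (4.88 on the log2 scale). This kept 39 of the listed genes, out of 13483 genes tested and 19775 genes with such a probe set. IFI27 and IFI44L lay below that level in every line, at group means of 4.18 to 4.45 and 2.91 to 4.25, and were not tested.

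The lines CEM, CUTL1, DND41 and Jurkat are established human lines of T-cell acute lymphoblastic leukaemia, a cancer of immature T cells. Each was cultured for 15 h with DMSO or with 1 uM PD-0332991 (palbociclib), an inhibitor of the cyclin-dependent kinases CDK4 and CDK6, and each of the 8 groups had 2 Affymetrix U133 Plus 2.0 arrays. The labels name no interferon, no genetic change and no other agent in any group, and whether replicates were separate cultures is not stated, so the p-values rest on array-to-array spread that may be technical. Each line grew alone in culture, without the immune or stromal cells that surround it in a patient. All 9 T-cell markers checked, among them CD3D, CD7 and LCK, were above the median level in all 4 lines. Known targets of the drug's action moved in every line: CCNE2 (cyclin E2), a target of the E2F factors that CDK4 and CDK6 release, fell by 4.34 on the log2 scale on average, and MCM10, a replication factor, fell by 2.93 (limma, adjusted p = 2.46e-11 and 2.71e-12).

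Cells sense foreign or misplaced nucleic acid and release interferon, which binds receptors on the same or other cells. Janus kinases at the receptor then activate STAT proteins, which with IRF9 bind the interferon-stimulated response element in promoters, while the gamma-activated site binds STAT dimers. The products degrade RNA, block translation, hold viruses at membranes, or tag proteins with ISG15, and some of them, such as USP18, dampen the signal again. In T cells these genes are kept at a basal level even without added interferon.

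The RefSeq promoter table (build GRCh38.p14) held 34 of the 42 genes, each with 250 bases before and 50 bases after a start of the gene. Where the table lists several starts for a gene, as for RSAD2 and CMPK2, only the first one listed was searched. Both strands were searched for the core of the interferon-stimulated response element, spelled GAAA, any pair of bases and GAAA again, which 21 of the 34 promoters held (61.8%), against 503 of all 15841 promoters in the table (3.18%). TTCNNNGAA, the gamma-activated site, was found in 9 (26.5%, against 6.97% of all), and TTTGGCGC or TTTCCCGC, forms of the site that E2F factors bind, in 3 (8.82%, against 3.06% of all). The 3 were OAS3, IFIH1 and RSAD2. In OAS3 the E2F match, from 16 to 9 bases before the start, overlaps a response element match from 12 to 3 bases before it. A match is a stretch of letters, not a shown binding site. The 160 bases before the start are given for 4 genes that were higher after PD-0332991 and for 2 that were lower, HERC5 and OAS3, with matches to the response element core in either orientation in capitals, followed by RSAD2, whose change differed in sign between lines, with its E2F matches in capitals.
ISG20, chr15:88638856-88639015, plus strand: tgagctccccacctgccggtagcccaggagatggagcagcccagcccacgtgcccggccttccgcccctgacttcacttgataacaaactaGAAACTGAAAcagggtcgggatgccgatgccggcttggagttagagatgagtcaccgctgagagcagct
IFIT1, chr10:89392463-89392622, plus strand: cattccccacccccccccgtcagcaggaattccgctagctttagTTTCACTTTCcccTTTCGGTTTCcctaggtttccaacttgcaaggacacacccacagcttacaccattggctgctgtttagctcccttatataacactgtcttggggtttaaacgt
IFI6, chr1:27672193-27672352, minus strand: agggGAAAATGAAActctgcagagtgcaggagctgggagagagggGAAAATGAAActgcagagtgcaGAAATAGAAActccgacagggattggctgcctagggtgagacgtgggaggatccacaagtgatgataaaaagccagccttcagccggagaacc
ISG15, chr1:1013337-1013496, plus strand: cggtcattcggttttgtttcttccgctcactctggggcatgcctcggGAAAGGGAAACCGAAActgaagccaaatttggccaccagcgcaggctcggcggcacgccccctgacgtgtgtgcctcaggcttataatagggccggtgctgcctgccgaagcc
HERC5, chr4:88456959-88457118, plus strand: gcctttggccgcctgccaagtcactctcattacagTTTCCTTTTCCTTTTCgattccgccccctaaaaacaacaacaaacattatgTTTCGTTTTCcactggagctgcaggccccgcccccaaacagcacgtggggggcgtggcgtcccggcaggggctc
OAS3, chr12:112938314-112938473, plus strand: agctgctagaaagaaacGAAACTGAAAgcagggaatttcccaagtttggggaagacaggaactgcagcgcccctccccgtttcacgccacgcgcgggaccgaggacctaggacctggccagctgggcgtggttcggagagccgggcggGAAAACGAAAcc
RSAD2, chr2:6865725-6865884, plus strand: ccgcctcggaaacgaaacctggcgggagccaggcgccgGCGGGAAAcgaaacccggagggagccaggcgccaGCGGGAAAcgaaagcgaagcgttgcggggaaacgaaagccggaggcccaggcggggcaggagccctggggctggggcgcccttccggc

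Some promoters of genes that rose and some of genes that fell carry the response element core in the window searched. Others do not, among them those of IRF9, SAMD9L and XAF1, which rose on average, and of CMPK2, which fell. HERC5 holds 3 matches, which lie from 125 to 65 bases before its start, and IFI6 holds 3. RSAD2 has no match to the response element core in the window searched, which belongs to the first of its 2 listed starts. The windows of HERC6 and of CMPK2, at the first of its 3 listed starts, have no match to any of the motifs searched. Whether the windows of the other RSAD2 and CMPK2 starts hold matches was not examined. These counts describe the letters alone.

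Averaged over the 4 lines, most of the 39 genes tested were higher after PD-0332991 and a few were clearly lower. By limma with Benjamini-Hochberg adjustment over all genes tested, 27 of 39 rose at an adjusted p under 0.05, where 26.7% of all genes rose, and 5 fell, where 20.0% of all genes fell. The remaining 7 were not called. The median change of the 39 was 0.28 on the log2 scale, against 0.04 for all genes tested. The rises were small: 6 genes rose at least 1.5-fold (ISG20, TRIM22, IFIT2, IRF9, OAS2 and IFIT1), and the only average change of 2-fold or more was the fall of HERC5. The shares of all genes with changes of these sizes were not counted. The genes that fell were HERC5, CMPK2, USP18, OAS3 and EIF2AK2. When the lines themselves served as replicates, with 1 mean difference for each, 16 of the 27 rises and 3 of the 5 falls (HERC5, USP18 and OAS3) were still called. The share of all genes called in that test was not counted. The rises lost were those of HERC6, OASL, IFIT1, IFIT5, IFITM1, IFITM3, IRF1, IRF7, SP100, XAF1 and IFI35, and the falls lost those of CMPK2 and EIF2AK2.

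**Figure D1:**
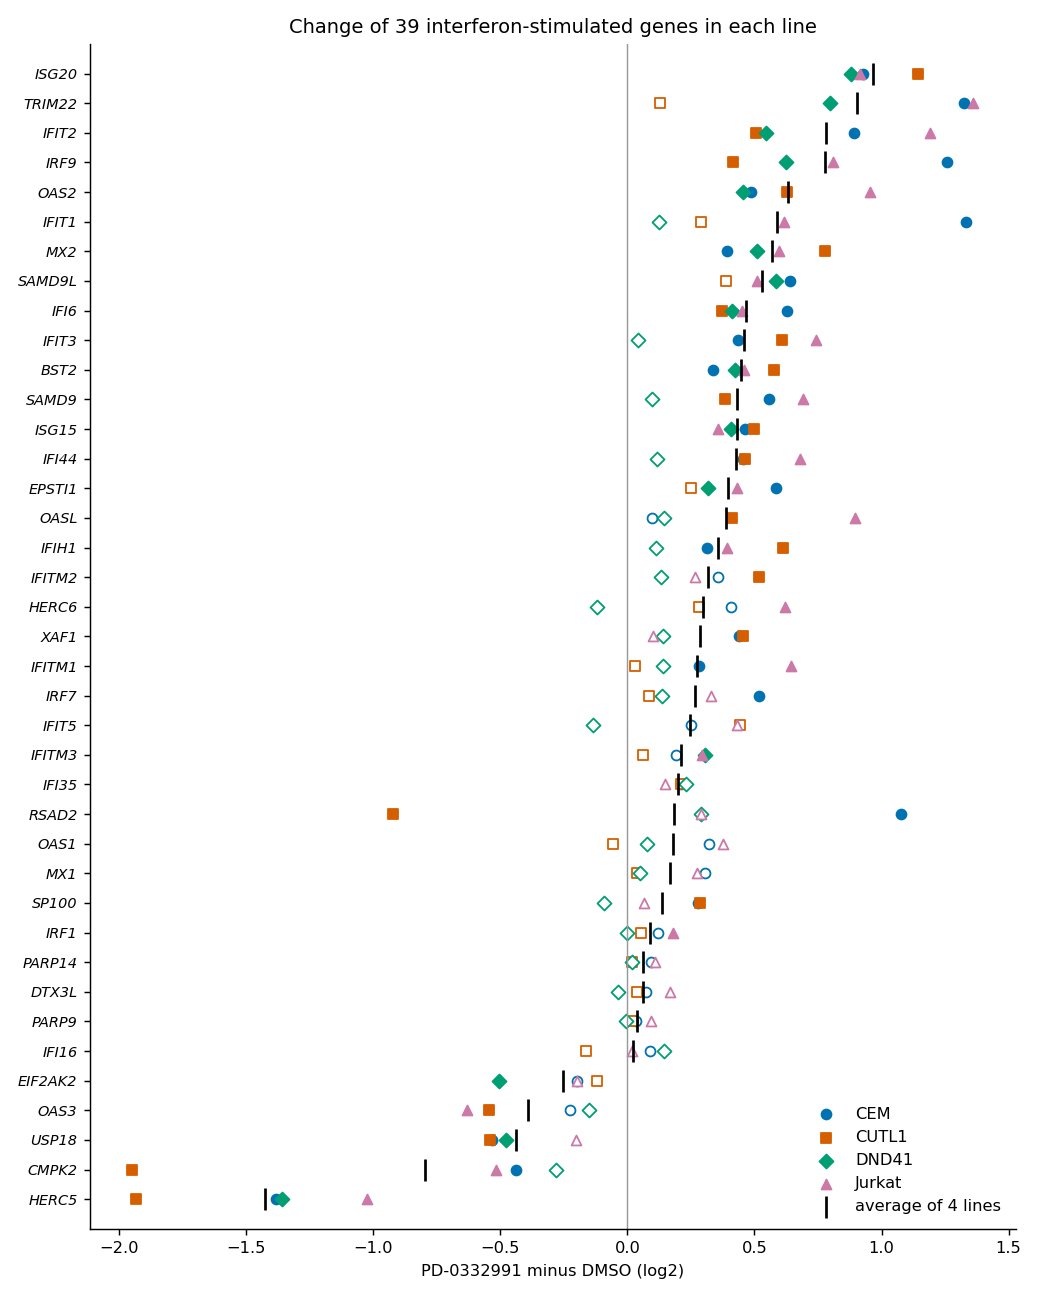
Each row is 1 of the 39 genes tested, and the horizontal axis is its PD-0332991 minus DMSO change on the log2 scale; symbols stand for the 4 lines, filled where limma called the change at an adjusted p under 0.05, and black ticks for the average over lines. Average changes run from -1.43 for HERC5 to 0.97 for ISG20, with CMPK2 and RSAD2 in CUTL1 far to the left of the other lines.

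By line, 21 genes rose in CEM (16.5% of all genes did), 16 in CUTL1 (14.6%), 12 in DND41 (11.1%) and 21 in Jurkat (15.6%). Those that fell numbered 3 in CEM (11.6% of all genes), 5 in CUTL1 (12.7%), 3 in DND41 (17.1%) and 3 in Jurkat (11.4%). The median change of the 39 was 0.34 in CEM, 0.28 in CUTL1, 0.13 in DND41 and 0.37 in Jurkat, against 0.01, 0.05, 0.01 and 0.05 for all genes. DND41 therefore gave the smallest median of the 4, and in DND41 the scaling matters most: 39.3% of all its calls were rises, against 55.1% after quantile normalization, 51.1% after cyclic loess and 23.8% with each array centred on its median, where the median of the 39 was 0.20, 0.19 and 0.06. Single arrays carried many line calls. Without the second CEM DMSO array 12 genes rose in CEM, and without the second CEM PD-0332991 array 1 fell. Without the first CUTL1 DMSO array or the second CUTL1 PD-0332991 array 9 rose in CUTL1. Without the second DND41 DMSO array 5 rose in DND41, without the second DND41 PD-0332991 array 7 rose, and without the first array of either DND41 group 1 fell.

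The share of all genes called in the same direction in all 4 lines was not counted. Of the 39, BST2, IFI6, IFIT2, IRF9, ISG15, ISG20, MX2 and OAS2 were called higher in all 4 lines, and HERC5 was the 1 gene called lower in all 4. The call for IRF9 in CUTL1 was the weakest of these (limma, adjusted p = 0.0456) and was lost without any 1 of 14 of the 16 arrays, with an adjusted p of up to 0.209. The sign was positive in all 4 lines for 25 of the 39 genes (22.5% of all genes) and negative in all 4 for 5 (17.7%). Both PD-0332991 arrays lay above both DMSO arrays for 29 genes in CEM (35.3% of all genes), 24 in CUTL1 (37.5%), 18 in DND41 (31.7%) and 30 in Jurkat (38.6%). They lay below both for 5 in CEM (29.4%), 5 in CUTL1 (25.3%), 6 in DND41 (32.8%) and 5 in Jurkat (25.2%). RSAD2, an enzyme that makes a chain-terminating nucleotide, was the 1 gene called in both directions.

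ISG15, a small protein that is attached to other proteins as ubiquitin is, was listed in a group with HERC5, HERC6 and USP18. Of these 4, ISG15 and HERC6 rose on average and HERC5 and USP18 fell. The group does not hold every enzyme that handles ISG15. HERC5, the main ligase that attaches ISG15, had the largest average fall of the list. Its log2 intensities with DMSO were 9.58 and 9.47 in CEM, 8.75 and 8.79 in CUTL1, 9.20 and 9.20 in DND41, and 9.12 and 9.12 in Jurkat, and with PD-0332991 they were 8.14 and 8.14, 6.78 and 6.89, 7.60 and 8.08, and 8.11 and 8.08. All 8 PD-0332991 arrays lay below all 8 DMSO arrays. The average change was -1.43 (SE 0.06, 2.69-fold lower, limma adjusted p = 3.38e-09), from 2.04-fold lower in Jurkat to 3.83-fold lower in CUTL1.

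USP18, the protease that removes ISG15 and also restrains the interferon receptor, fell by 0.44 on average (SE 0.06, limma adjusted p = 7.02e-05). With DMSO it read 7.69 and 7.61 in CEM, 6.99 and 7.19 in CUTL1, 8.28 and 8.11 in DND41, and 8.79 and 8.92 in Jurkat, against 7.25 and 6.99, 6.46 and 6.63, 7.64 and 7.79, and 8.56 and 8.75 with PD-0332991. The arrays of the treatments did not overlap in any line, though the change in Jurkat, -0.20, was not called (adjusted p = 0.237). The calls in CEM, CUTL1 and DND41 were each lost without 1 array (the second CEM PD-0332991 array, the first CUTL1 PD-0332991 array, or the first DND41 array of either treatment), with adjusted p of up to 0.0883.

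ISG15 itself moved the other way, by 0.43 on average (SE 0.04, limma adjusted p = 2.10e-06) and by 0.36 in Jurkat to 0.50 in CUTL1. Its means with DMSO were 11.22 to 11.81. HERC6 is a relative of HERC5 that lies beside it on chromosome 4. Its values were 6.08 and 5.57 in CEM, 5.78 and 5.65 in CUTL1, 6.27 and 6.37 in DND41, and 5.60 and 5.89 in Jurkat with DMSO, and 6.15 and 6.31, 5.85 and 6.14, 6.03 and 6.38, and 6.17 and 6.55 with PD-0332991. It was chosen for this detail, after its values were seen, because it neighbours HERC5. The average rise of 0.30 (limma, adjusted p = 0.0211) was lost without the second CUTL1 PD-0332991 array, the first Jurkat DMSO array or the second Jurkat PD-0332991 array, with an adjusted p of up to 0.0544, and under 3 other settings, to 0.190.

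Among the 6 sensors and effectors of double-stranded RNA, 3 rose (OAS2, OASL and IFIH1), 2 fell (OAS3 and EIF2AK2) and OAS1 was not called (0.18, limma adjusted p = 0.109). The OAS enzymes make a short oligoadenylate that switches on the ribonuclease RNase L. OAS3 read 8.06 and 8.17 in CEM, 7.54 and 7.53 in CUTL1, 7.66 and 7.62 in DND41, and 7.67 and 7.57 in Jurkat with DMSO, and 7.82 and 7.95, 6.92 and 7.06, 7.54 and 7.44, and 6.94 and 7.03 with PD-0332991. In each line both PD-0332991 arrays were the lower ones, but the calls were limited to CUTL1 (-0.55, adjusted p = 0.000359) and Jurkat (-0.63, adjusted p = 0.000150), and the average was -0.39 (SE 0.04, limma adjusted p = 8.73e-06).

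OAS2 lies next to OAS3 on chromosome 12 and rose in all 4 lines, by 0.63 on average (SE 0.05, limma adjusted p = 1.57e-06). With DMSO its values were 5.56 and 5.36 in CEM, 5.91 and 6.10 in CUTL1, 6.48 and 6.17 in DND41, and 7.16 and 7.14 in Jurkat, and with PD-0332991 they were 5.93 and 5.96, 6.59 and 6.68, 6.74 and 6.81, and 8.10 and 8.12. No line overlapped, and Jurkat, the line with the highest level, also had the largest change, 0.95. The calls in CEM and DND41 were lost without the second DMSO array of that line (adjusted p = 0.0559 and 0.0868).

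OASL, an OAS relative without enzyme activity that boosts RNA sensing, changed mainly in Jurkat. It went from 6.16 and 6.00 to 7.04 and 6.92 there, from 5.71 and 5.97 to 6.24 and 6.27 in CUTL1, from 5.83 and 5.67 to 5.90 and 5.80 in CEM, and from 5.42 and 5.45 to 5.44 and 5.73 in DND41. The treatments overlapped in CEM and DND41. The average rise was 0.39 (SE 0.06, limma adjusted p = 0.000151), a call lost with each line's mean difference as 1 replicate (limma adjusted p = 0.109). IFIH1 (MDA5), a sensor of long double-stranded RNA, rose by 0.36 on average and by 0.11 in DND41 to 0.61 in CUTL1; the average call was lost (adjusted p = 0.592) when all its probe sets were averaged, 2 of 3 of which were below the level for testing.

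EIF2AK2 (PKR), a kinase that stops translation when it meets double-stranded RNA, had the smallest of the 5 average falls, -0.26 (SE 0.06, limma adjusted p = 0.00574). It read 9.13 and 9.19 in CEM, 9.97 and 9.63 in CUTL1, 9.90 and 9.75 in DND41, and 8.21 and 8.47 in Jurkat with DMSO, and 8.99 and 8.94, 9.77 and 9.59, 9.21 and 9.42, and 8.18 and 8.10 with PD-0332991. The treatments overlapped in CUTL1, and only DND41 was called (-0.51, adjusted p = 0.0124). Without DND41 the average fall was no longer called (adjusted p = 0.0773), and without the first DND41 array of either treatment the DND41 call was lost (adjusted p of up to 0.0984).

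CMPK2 and RSAD2 are neighbours on chromosome 2, and both encode enzymes of antiviral nucleotide metabolism: CMPK2 is a mitochondrial nucleotide kinase, and RSAD2 (viperin) uses the nucleotide it makes. CMPK2 went from 9.72 and 9.74 with DMSO to 7.76 and 7.80 with PD-0332991 in CUTL1, a 3.86-fold fall (-1.95, SE 0.10, limma adjusted p = 7.49e-08). In the other lines the step was far smaller, from 10.58 and 10.51 to 10.21 and 10.01 in CEM, from 10.98 and 10.90 to 10.66 and 10.66 in DND41, and from 10.52 and 10.88 to 10.19 and 10.17 in Jurkat. PD-0332991 arrays were below the DMSO arrays in every line. The change in DND41, -0.28, was not called (adjusted p = 0.0641), and the CEM call was lost without the first CEM DMSO array or the second CEM PD-0332991 array (adjusted p of up to 0.0732). The average fall was 0.80 on the log2 scale, 1.74-fold (SE 0.05, limma adjusted p = 1.80e-07); in a test over 4 values, the mean difference of each line, its adjusted p was 0.0978.

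RSAD2 moved apart between the lines. It rose in CEM, from 7.75 and 7.49 to 8.74 and 8.65 (1.08, 2.11-fold, limma adjusted p = 0.000654), and fell in CUTL1, from 5.58 and 6.01 to 4.90 and 4.86 (-0.92, adjusted p = 0.00160). The CUTL1 values with PD-0332991 lie at the 4.88 level that marks dim genes, so the fall may be understated. DND41 went from 7.46 and 7.57 to 7.64 and 7.97 and Jurkat from 6.75 and 7.18 to 7.24 and 7.27, with both PD-0332991 arrays higher in each, and neither was called (adjusted p = 0.222 and 0.235). In CEM the neighbours CMPK2 and RSAD2 were thus called in opposite directions, and in CUTL1 both fell. The average for RSAD2, 0.18, was not called (adjusted p = 0.0944) and turned to -0.11 without CEM.

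**Figure D2:**
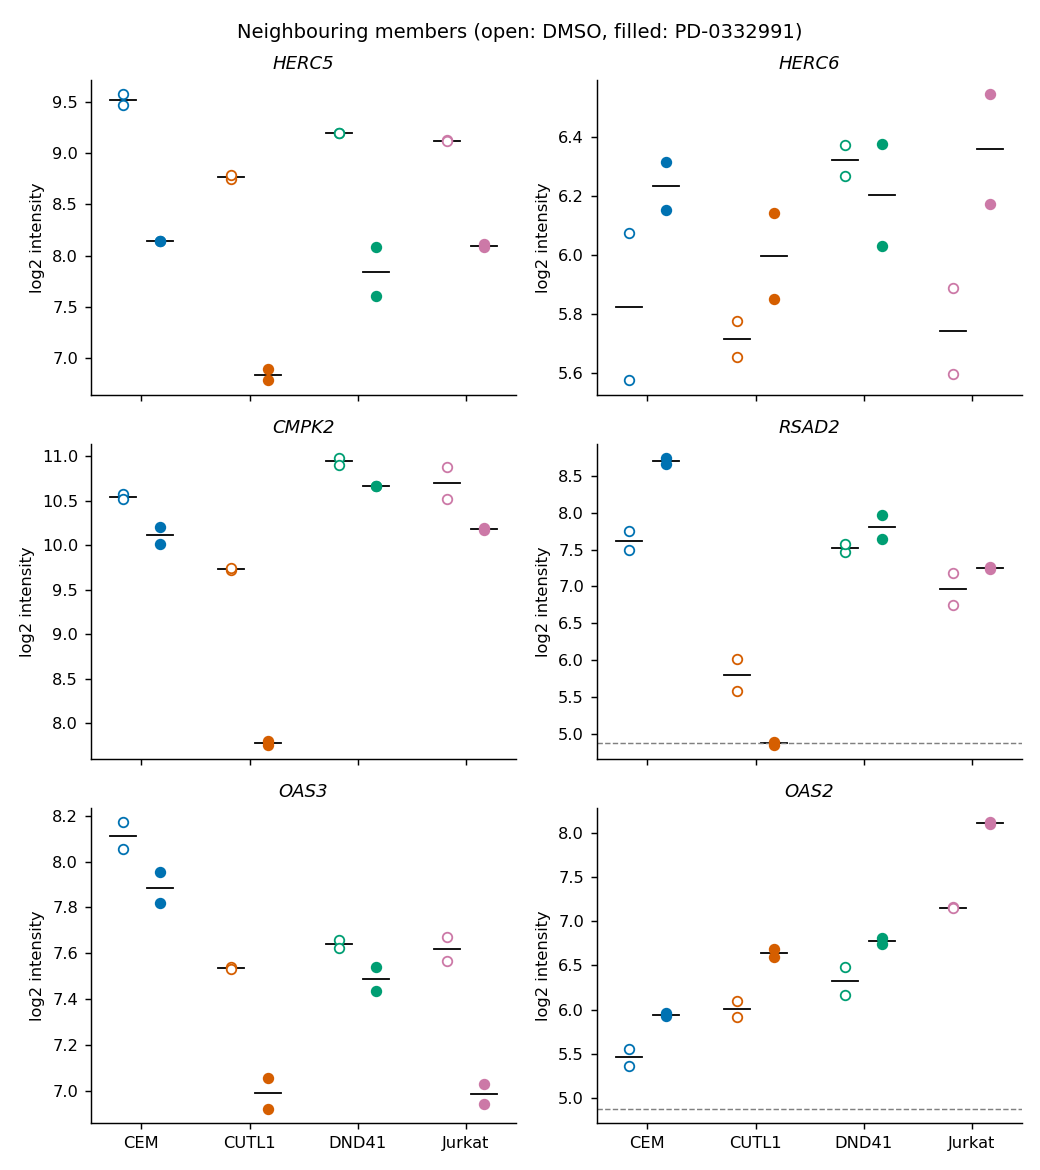
Log2 intensity of each array (vertical axes differ between panels) by line for 3 pairs of neighbouring genes; open circles are DMSO arrays, filled circles PD-0332991 arrays, bars the means of 2 arrays, and dashed lines the median of all deposited values (4.88). HERC5 falls in all 4 lines while the HERC6 arrays of the treatments overlap in DND41, CMPK2 falls from 9.73 to 7.78 in CUTL1 while RSAD2 rises in CEM and falls in CUTL1, and OAS3 is lower where OAS2 is higher.

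ISG20, an exonuclease that degrades single-stranded RNA, had the largest average rise. It went from 6.66 and 6.55 to 7.58 and 7.49 in CEM, from 8.08 and 8.49 to 9.38 and 9.48 in CUTL1, from 7.03 and 6.93 to 7.90 and 7.83 in DND41, and from 7.76 and 7.71 to 8.67 and 8.63 in Jurkat. No line overlapped. The rise was 0.97 on average (SE 0.06, 1.95-fold, limma adjusted p = 6.71e-08), from 0.88 in DND41 to 1.15 in CUTL1, and the test for a difference between lines did not pass (adjusted p = 0.526).

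All 4 genes of the IFIT family, which bind foreign RNA ends and block its translation, rose on average, with a median of 0.52. IFIT2 was called in each line: it went from 5.49 and 4.91 to 6.17 and 6.01 in CEM, from 7.00 and 6.99 to 7.37 and 7.64 in CUTL1, from 7.08 and 6.99 to 7.54 and 7.62 in DND41, and from 7.42 and 7.33 to 8.60 and 8.54 in Jurkat. The average was 0.78 (SE 0.08, 1.72-fold, limma adjusted p = 5.72e-06), with no overlap in any line. Its other bright probe set changed by 0.07 without a call (adjusted p = 0.744), and with the probe sets averaged the calls in CEM and CUTL1 were lost (adjusted p = 0.389 and 0.194). The calls in CUTL1 and DND41 (limma adjusted p = 0.0293 and 0.0214) rested on single arrays. The CUTL1 call was lost without any 1 of 3 CUTL1 arrays, with changes of 0.37 to 0.64 when 1 array was left out. The DND41 call was lost without any 1 of the 4 DND41 arrays, with changes of 0.50 to 0.59.

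IFIT1 rose by 0.59 on average (SE 0.10, limma adjusted p = 0.000462), a call lost with each line's mean difference as 1 replicate (limma adjusted p = 0.0870). Its largest step was in CEM, where it went from 5.29 and 4.82 to 6.59 and 6.18 (2.52-fold). Jurkat went from 5.75 and 5.69 to 6.28 and 6.39 and DND41 from 6.32 and 6.28 to 6.14 and 6.71, where the treatments overlapped. In CUTL1 it stayed below the level of dim genes, at 3.83 and 4.18 and then 4.25 and 4.34. The Jurkat call (adjusted p = 0.0417) was lost without any 1 of 8 arrays, to 0.175.

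IFIT3 rose by 0.46 on average (SE 0.06, limma adjusted p = 8.77e-05). It was dim in CEM, at 4.25 and 4.01 and then 4.40 and 4.73, and went from 7.73 and 7.75 to 8.25 and 8.44 in CUTL1, from 8.67 and 8.66 to 8.68 and 8.73 in DND41, and from 7.30 and 7.50 to 8.25 and 8.03 in Jurkat. DND41, where IFIT3 was brightest, was the line with hardly any step (0.04, adjusted p = 0.833). IFIT5 rose by 0.25 (limma adjusted p = 0.0246), was called in no single line, and lost the average call without any 1 of 8 arrays (to 0.0611) and under 5 other settings (to 0.177).

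All 4 membrane factors rose on average, with a median of 0.30: BST2 (tetherin), which holds budding virus at the cell surface, by 0.45, and IFITM1, IFITM2 and IFITM3, which hinder virus entry, by 0.27, 0.32 and 0.21. BST2 was higher in every line, by 0.34 in CEM to 0.58 in CUTL1. The IFITM genes are near-identical copies that lie side by side on chromosome 11, and their probe sets may read more than 1 of them, so their separate values are uncertain. IFITM1, named here for its difference between lines, had changes of 0.03 in CUTL1 and 0.64 in Jurkat, from 11.83 and 11.77 to 11.86 and 11.79 in the first and from 10.43 and 10.52 to 11.10 and 11.14 in the second. Of the MX proteins, GTPases that trap virus particles, MX2 rose and MX1 was not called (0.17, limma adjusted p = 0.0724).

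MX2 rose in every line without overlap, from 8.53 and 8.38 to 8.85 and 8.83 in CEM, from 7.73 and 7.66 to 8.45 and 8.50 in CUTL1, from 9.06 and 9.06 to 9.60 and 9.54 in DND41, and from 7.11 and 6.88 to 7.71 and 7.47 in Jurkat. Its average was 0.57 (SE 0.05, 1.48-fold, limma adjusted p = 1.75e-06). The CEM call was lost without the second CEM DMSO array or the first CEM PD-0332991 array (adjusted p of up to 0.0892). The SAMD9 pair, which restricts poxviruses and lies on chromosome 7, also rose: SAMD9 by 0.43 and SAMD9L by 0.53 (SE 0.07, limma adjusted p = 8.17e-05). SAMD9L went from 7.22 and 7.05 to 7.81 and 7.75 in CEM, from 7.37 and 7.40 to 7.60 and 7.94 in CUTL1, from 7.83 and 7.78 to 8.30 and 8.49 in DND41, and from 7.28 and 6.83 to 7.50 and 7.63 in Jurkat. It was above DMSO in both arrays of each line, though CUTL1 was not called (limma adjusted p = 0.0678). The other 3 line calls were each lost when a single array of that line was left out. This held for 1 array in CEM, 2 in DND41 and 3 in Jurkat.

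All 3 transcription factors tested rose on average. IRF9, the DNA-binding partner of the STAT proteins, went from 6.49 and 6.55 to 7.74 and 7.81 in CEM, from 7.04 and 7.08 to 7.54 and 7.42 in CUTL1, from 7.11 and 7.03 to 7.40 and 7.98 in DND41, and from 6.26 and 6.27 to 7.10 and 7.04 in Jurkat. No line overlapped, the average was 0.78 (SE 0.07, 1.71-fold, limma adjusted p = 2.68e-06), and CEM had the largest step, 1.26. IRF7, which drives type I interferon genes, rose by 0.27, with CEM called (0.52) and an average no longer called without CEM (adjusted p = 0.0540). IRF1 rose by 0.09 (limma adjusted p = 0.0262) and lost that call without any 1 of 6 arrays (to 0.0694) and under 5 other settings (to 0.404), while its other probe set rose by 0.30 (adjusted p = 6.55e-05).

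TRIM22, a ubiquitin ligase that restricts retroviruses, rose in the 3 lines where it was above the level of dim genes. It went from 9.07 and 9.03 to 10.45 and 10.30 in CEM (2.50-fold), from 9.69 and 9.73 to 10.43 and 10.58 in DND41 (1.74-fold), and from 7.62 and 7.88 to 9.06 and 9.17 in Jurkat (2.57-fold). In CUTL1, which the average includes, it was below the level of dim genes, at 4.21 and 3.74 and then 3.72 and 4.49, and the treatments overlapped. The average was 0.90 (SE 0.11, 1.87-fold, limma adjusted p = 2.44e-05); the DND41 call was lost without either DND41 DMSO array or the second DND41 PD-0332991 array (adjusted p of up to 0.0760).

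**Figure D3:**
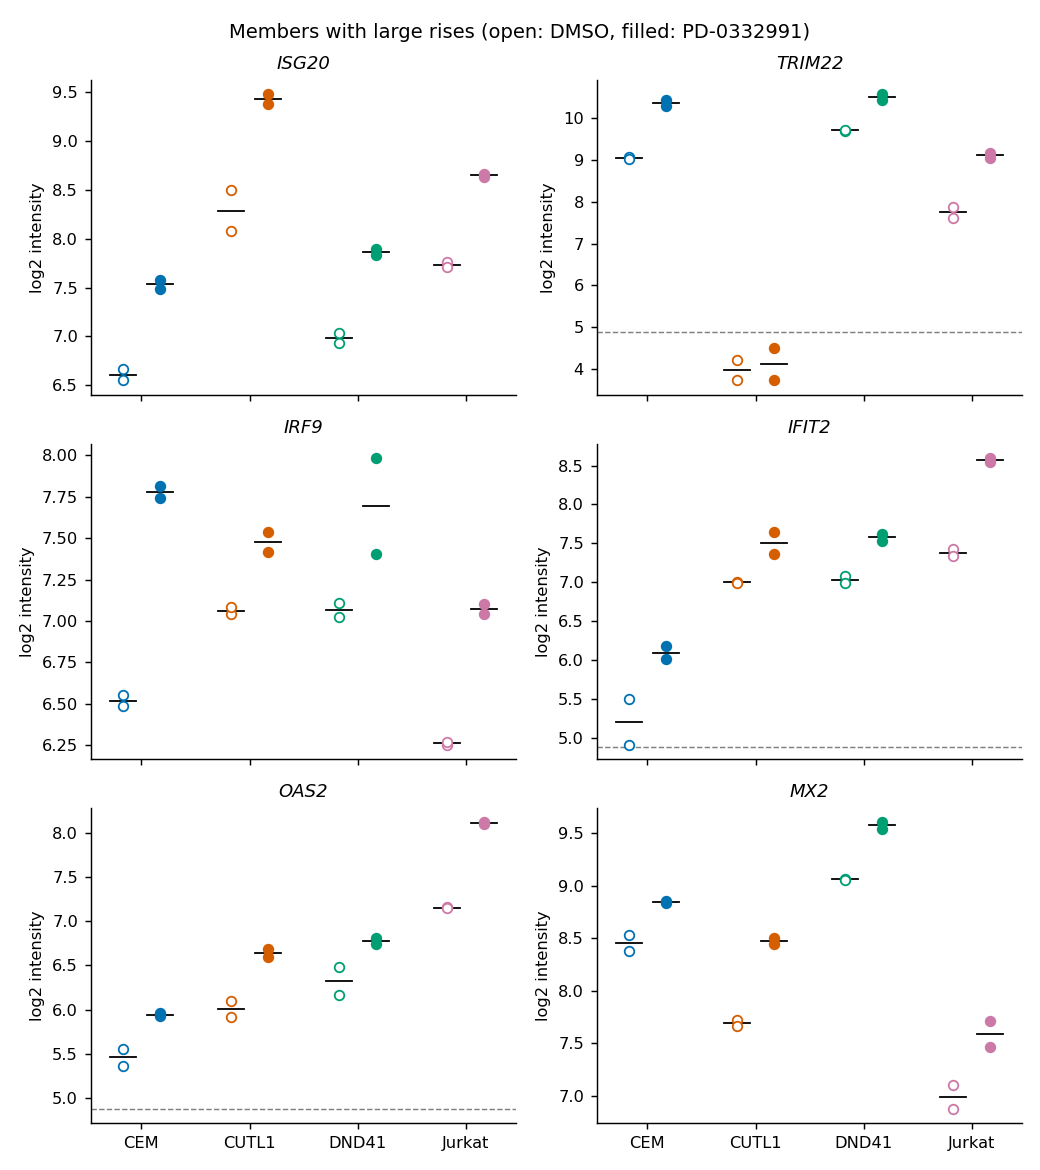
Log2 intensity of each array (vertical axes differ between panels) by line for ISG20, TRIM22, IRF9, IFIT2, OAS2 and MX2, 6 genes with large average rises; open circles are DMSO arrays, filled circles PD-0332991 arrays, bars the means of 2 arrays, and dashed lines the median of all deposited values (4.88). Both filled points lie above both open points in every line for these 6 genes except TRIM22 in CUTL1, where all 4 arrays lie between 3.72 and 4.49.

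The other nuclear proteins moved little. SP100, a nuclear body protein, rose by 0.13 (limma adjusted p = 0.0296, lost without any 1 of 8 arrays, to 0.0781, and under 7 other settings, to 0.337), and IFI16, a DNA sensor, was not called (0.02). None of PARP9, DTX3L and PARP14, which act together in ADP-ribosylation and ubiquitination, was called (0.04, 0.06 and 0.06, limma adjusted p = 0.632, 0.284 and 0.414). All 5 of the remaining genes tested rose: IFI6, a mitochondrial survival factor, by 0.47, IFI44 by 0.43, EPSTI1 by 0.40, XAF1, which promotes cell death, by 0.28, and IFI35 by 0.20. IFI6 was called in all 4 lines (0.37 in CUTL1 to 0.63 in CEM) and IFI35 in none. With each line's mean difference as 1 replicate, the average calls of XAF1 and IFI35 were lost (limma adjusted p = 0.0729 and 0.0660). The XAF1 calls in CEM and CUTL1 were lost with all its probe sets averaged (adjusted p = 0.152 and 0.0503). Its other bright probe set rose by 0.14 without a call (adjusted p = 0.182).

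IFI44 went from 8.90 and 8.89 to 9.40 and 9.30 in CEM, from 8.35 and 8.64 to 8.96 and 8.96 in CUTL1, from 9.66 and 9.79 to 9.92 and 9.76 in DND41, and from 6.36 and 6.85 to 7.28 and 7.29 in Jurkat. The treatments overlapped in DND41. The calls in the other 3 lines were lost when its second, dim probe set was averaged in (adjusted p of up to 0.409). EPSTI1 went from 8.16 and 8.26 to 8.81 and 8.77 in CEM, from 6.33 and 6.56 to 6.61 and 6.79 in CUTL1, from 8.28 and 8.24 to 8.50 and 8.65 in DND41, and from 5.64 and 5.67 to 6.09 and 6.08 in Jurkat. No line overlapped for EPSTI1, and CUTL1 alone was not called (0.25, limma adjusted p = 0.0644).

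The size of the change differed between lines for 8 of the 39 genes (limma F test on 3 degrees of freedom, 12.6% of all genes): CMPK2, RSAD2, OASL, HERC5, OAS3, IFITM1, TRIM22 and IFIT1. For CMPK2 the fall in CUTL1 exceeded that in CEM by 1.51, in DND41 by 1.67 and in Jurkat by 1.43 (adjusted p = 0.000363, 0.000182 and 0.00112). For RSAD2, CUTL1 lay 2.00 below CEM, 1.21 below DND41 and 1.21 below Jurkat (adjusted p = 0.000825, 0.0126 and 0.0203). HERC5 fell by 0.91 more in CUTL1 than in Jurkat (adjusted p = 0.0158), and OAS3 by 0.48 more in Jurkat than in DND41 (adjusted p = 0.0264).

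Among rises, OASL rose by 0.80 more in Jurkat than in CEM and by 0.75 more than in DND41 (limma, adjusted p = 0.0272 and 0.0189). IFIT1 rose by 1.21 more in CEM than in DND41 (adjusted p = 0.0297). For TRIM22 no pair of lines is set apart here. Its F test takes in CUTL1, where the gene was below the level of dim genes and a change has no measured size. IFIT1 was also that dim in CUTL1. Neither F test was repeated without CUTL1. The count of 8 rests on few arrays: it was 2 without either DND41 DMSO array or either Jurkat PD-0332991 array, 3 without the first CUTL1 PD-0332991 array, 4 without the first CUTL1 or the first Jurkat DMSO array, and 5 without the second CUTL1 PD-0332991 array. CMPK2 and RSAD2 kept the call without any 1 of the 16 arrays. HERC5 lost it without any 1 of 8 arrays, OAS3 without any 1 of 9, and OASL without any 1 of 5. IFITM1 lost it without any 1 of 10, and IFIT1 and TRIM22 without any 1 of 12 each.

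Before any drug the lines already differed in nearly all of these genes. The DMSO level differed between lines for 38 of 39 (limma F test, 71.2% of all genes), the exception being SAMD9 (adjusted p = 0.0760). The range between the lowest and the highest line had a median of 1.24 on the log2 scale, and was at least 1 for 23 genes and at least 2 for 10. Such ranges were not counted over all genes. DND41 had the highest mean for 17 genes, Jurkat for 10, CEM for 7 and CUTL1 for 5, and CUTL1 had the lowest for 14. Against the mean of the other 3 lines, 27 genes were higher in DND41 and 6 lower (23.9% and 22.4% of all genes). In CUTL1 9 were higher and 20 lower (22.0% and 25.7%), in CEM 13 and 14 (21.4% and 24.3%), and in Jurkat 17 and 11 (28.9% and 21.5%).

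The widest ranges belonged to TRIM22, IFIT3, IFI44, EPSTI1 and IFIT1, and DND41 was the highest line for each. TRIM22 ran from 3.97 in CUTL1 through 7.75 in Jurkat and 9.05 in CEM to 9.71 in DND41, and every neighbouring pair in that order differed (limma, adjusted p of up to 0.0234 for CEM against DND41). IFIT3 ran from 4.13 in CEM through 7.40 in Jurkat and 7.74 in CUTL1 to 8.66 in DND41, with neighbours apart (adjusted p of up to 0.0419). The low ends of these orders are dim, so the ranges, 5.74 and 4.53, may be understated. IFI44 ran from 6.61 in Jurkat through 8.50 in CUTL1 and 8.90 in CEM to 9.72 in DND41, an 8.67-fold range with neighbours apart (adjusted p of up to 0.0363). EPSTI1 was 6.09-fold lower in Jurkat (5.65) than in DND41 (8.26), with CUTL1 at 6.45, and CEM (8.21) and DND41 did not differ beyond their spread (adjusted p = 0.666). IFIT1 ran from 4.01 in CUTL1, which is dim, through 5.05 in CEM and 5.72 in Jurkat to 6.30 in DND41, with all neighbours apart (adjusted p of up to 0.0323).

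**Figure D4:**
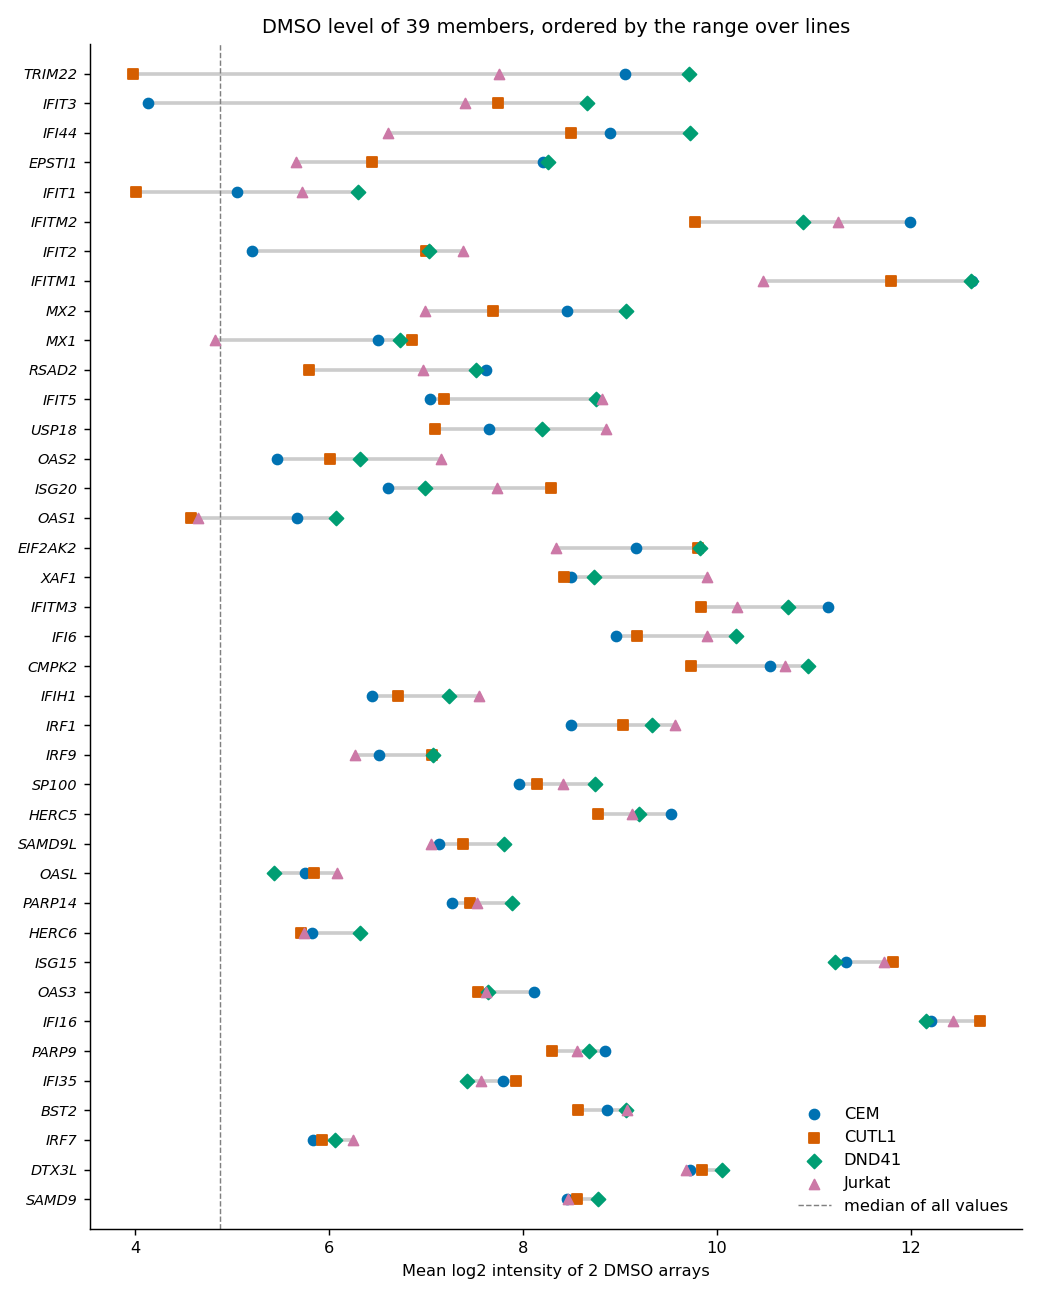
Mean log2 intensity of the 2 DMSO arrays of each line (symbols) for the 39 genes tested, 1 row a gene, ordered by the range over lines (grey bars); the dashed line is the median of all deposited values (4.88). Positions are to be compared within a row, since different probe sets have different brightness; TRIM22 spans 5.74 and SAMD9, at the bottom, 0.32.

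The rest of the interferon pathway gave a mixed picture. Of 21 interferon genes 18 had a probe set, 16 of these were below the level for testing in every line, and the 2 tested, IFNA17 and IFNL1, were not called (0.13 and 0.10, limma adjusted p = 0.176 and 0.359); the IFNA17 probe set may read other genes of that near-identical family. Among 6 receptor subunits 2 rose and 2 fell, with a median of 0.07: IFNAR1 and IFNAR2, which together form the type I receptor, went in opposite directions, by 0.19 and -0.12 (adjusted p = 0.0189 and 0.0214). Neither IFNAR1 nor IFNAR2 was called in any single line. IL10RB, of the type III receptor, rose by 0.15 on average, and IFNGR2, of the interferon gamma receptor, fell by 0.26 (adjusted p = 0.00790 and 0.000327). By line, IL10RB was called in CEM alone (0.34) and IFNGR2 in CEM and Jurkat (-0.48 and -0.38). Of 9 genes of JAK-STAT signalling and its brakes 6 rose and 1, PTPN2, fell (median 0.31), with STAT3 at 0.49, JAK1 at 0.32 and the inhibitor SOCS1 at 0.37 (adjusted p of up to 0.000378).

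Of 14 nucleic acid sensing genes tested 8 rose (median 0.24), among them STING1, the adaptor of cytosolic DNA sensing (0.59), MYD88, an adaptor of Toll-like receptors (0.37), and TLR9, a DNA receptor (0.35). Of 32 further interferon-induced genes 20 rose and 6 fell (median 0.23). The 3 with the smallest p in that list were PLSCR1, a phospholipid scramblase, which fell by 1.00 (SE 0.05, limma adjusted p = 1.20e-08), RTP4, which rose by 0.81, and APOBEC3G, a cytidine deaminase, which rose by 0.65. In all genes, 26.7% rose and 20.0% fell.

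Of 40 markers of B, myeloid, plasmacytoid dendritic, natural killer and erythroid cells, fibroblasts, endothelium and epithelium, 19 were bright enough to test. Of the 19, 4 rose, namely CD79A, PRF1, ALAS2 and PECAM1, where 26.7% of all genes rose. Of 9 T-cell markers 8 rose (median 0.35), against the same 26.7% of all genes. The summed intensity of the T-cell list ran from 22805 to 35729 with DMSO and from 25874 to 40180 with PD-0332991. The part of this shift in the results was not tested. Replicate arrays correlated at 0.993 to 0.998 over the genes tested, lowest in DND41 with PD-0332991. The 18S probe signal was lower with PD-0332991 in DND41 (12.45 and 12.75 against 13.21 and 13.26) and in CUTL1 (12.80 and 12.67 against 13.28 and 13.17) and overlapped in CEM and Jurkat. The actin 5′ minus 3′ difference, a sign of RNA quality, was lower with PD-0332991 in CEM (-0.92 and -0.87 against -0.51 and -0.73) and in Jurkat (-0.86 and -0.93 against -0.74 and -0.84), higher in DND41 (-0.59 and -0.73 against -0.999 and -1.01) and overlapped in CUTL1. The part of either measure in the changes of these lines was not tested. In bulk RNA, less RNA per cell and fewer cells with a transcript cannot be told apart.

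Other probe sets of the same genes mostly gave the same direction. Of the 39 genes 17 had 1 probe set, and 18 had another one bright enough to test. In the average effect 22 of 25 such other probe sets had a change in the direction of the chosen one. The 3 that did not, of SP100, IFI16 and PARP9, had adjusted p of 0.112 or more. HERC5, CMPK2 and USP18 have 1 probe set each, so their falls have no such check, while the other OAS3 probe set also fell (-0.23, limma adjusted p = 0.0101) and the 2 others of EIF2AK2 gave -0.16 and -0.20 without a call (adjusted p = 0.143 and 0.0514).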

How the data were processed

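Total RNA of 16 samples (4 lines, 2 treatments, 2 arrays each) was measured on Affymetrix U133 Plus 2.0 arrays; per the labels' protocols it was amplified with a Nugen Ovation kit and labelled with biotin. The authors deposited linear intensity values, 4.42 to 26097, with 1 value for each probe set and array, made with RMA per the submitters' processing notes. The RMA version, the probe set definition and a genome build were not given in the sources used here. Because the values were not on a log scale, as the design had allowed for, log2 was taken with no pseudocount and no further scaling. Array medians ran from 28.5 to 31.2. Precision is limited by how few arrays there are.

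Of 54675 probe sets, 41097 had 1 gene symbol, 1801 several and 11777 none in the platform annotation. One probe set was used per gene, and 6292 dim genes were set aside. The limma package (version 3.58.1, under R 4.3.3) was used to fit 8 group means over all 16 arrays by lmFit, followed by eBayes; residual degrees of freedom were 8 and the prior added 3.32. The p-values of single differences were two-sided, and each F test took 3 differences together. Both were adjusted by Benjamini-Hochberg over 13483 genes, and changes were called at an adjusted p under 0.05. Values for other probe sets came from a separate fit, adjusted over all bright probe sets of 1 symbol. Values for alternative settings were adjusted over the genes tested in that setting. The script was tested on simulated data. Figures were drawn with Python 3.11.15 and matplotlib 3.10.9. Promoters came from the RefSeq table of GRCh38.p14 (34 genes matched); gene order came from RefSeq, and no coordinates of the probe sets are given.

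The genes and lists were chosen with earlier results of these data known. Values of each array are given for the 8 largest called rises, every called fall, the 5 smallest p-values for a difference between lines and the 5 widest ranges in DMSO, with 3 genes of each pathway list by smallest p (and every one tested where fewer); others are named for a count of 5 or fewer, for a neighbour or for a call, after their values were seen. Alternatives covered scaling, the filter, the probe set, an added offset of 16, the variance prior, the replicate number, each array and each line.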

Additional observations from a re-analysis of the deposited data

Results flagged for a closer look

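The PD-0332991 change of 8 genes differed between lines by the limma F test on the difference itself. The adjusted p was 0.000208 for CMPK2, with changes from -1.95 in CUTL1 to -0.28 in DND41, and 0.00220 for RSAD2, from -0.92 in CUTL1 to 1.08 in CEM. It was 0.0227 for OASL (0.10 in CEM to 0.90 in Jurkat), 0.0243 for HERC5 (-1.94 in CUTL1 to -1.03 in Jurkat) and 0.0338 for OAS3 (-0.63 in Jurkat to -0.15 in DND41). It was 0.0353 for IFITM1 (0.03 in CUTL1 to 0.64 in Jurkat), 0.0443 for TRIM22 (0.13 in CUTL1 to 1.36 in Jurkat) and 0.0492 for IFIT1 (0.12 in DND41 to 1.33 in CEM). TRIM22 and IFIT1 were below the level of dim genes in CUTL1.

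For SP100 both PD-0332991 arrays were above both DMSO arrays in CEM (8.24 and 8.23 against 8.01 and 7.90) and CUTL1 (8.34 and 8.53 against 8.06 and 8.23) and below them in DND41 (8.64 and 8.67 against 8.68 and 8.81). The limma F test of that difference did not pass (adjusted p = 0.128).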

How the results depend on the processing

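The counts of genes called were recomputed under every alternative. Those that moved by over 1.5 times were: falls in DND41, 5 with arrays centred on their medians (3 as reported); differences between lines, 4 with no filter on dim genes (8 as reported); average rises, 17 without probe sets whose names end in _x_at or _s_at, which left 29 of the 39 genes; and, with each line's mean difference as 1 replicate, 16 average rises and 3 average falls (27 and 5 as reported). Leaving out 1 array at a time gave 12 to 21 rises and 1 to 3 falls in CEM, 9 to 17 rises and 4 to 6 falls in CUTL1, 5 to 13 rises and 1 to 4 falls in DND41, 15 to 22 rises and 3 falls in Jurkat, 23 to 29 average rises and 5 average falls, 2 to 9 differences between lines and 35 to 38 differences in DMSO. Fewer arrays leave fewer residual degrees of freedom; other causes were not tested. Of 124 changes of single genes called in the average, a line or the difference between lines, 63 kept the call throughout and 0 turned sign. Changes in a single line that were not called were not followed across settings. Nor were the genes of the pathway lists and the cell type markers. Among averages, these turned sign, none of them called: RSAD2 without CEM (-0.11), PARP9 with all probe sets averaged (-0.049) or without _x_at and _s_at probe sets (-0.13), and IFI16 with all probe sets averaged (-0.030), without CEM (-0.0017), without DND41 (-0.019) or without the second CUTL1 DMSO array (range with 1 array left out, -0.017 to 0.060).

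Arrays with the same replicate number did not deviate together in all groups. Over 28 pairs of groups the correlation of same-numbered deviations ran from -0.367 to 0.215, and 6 were above 0.1. Between the DMSO and PD-0332991 groups of a line it was 0.08 in CEM, 0.19 in CUTL1, -0.11 in DND41 and 0.10 in Jurkat. Whether arrays were paired within a line cannot be told from these values. With the replicate number as a block, 27 genes rose and 5 fell on average, 19 rose and 3 fell in CEM, 16 and 5 in CUTL1, 12 and 3 in DND41, 19 and 3 in Jurkat, and 6 differed between lines.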
